A study of Mus musculus with 9 samples.

Results

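The profile described here is that of untreated 3T3-L1 cells, a mouse embryonic fibroblast line used as a model of preadipocytes, the fibroblast-like cells that can become fat cells. Its members were the 3 arrays whose titles name the untreated control at 24 h, out of 9 arrays in the series; the other 6 arrays, from cells that received compound X-1 or compound X-3 (70 µM), were left out. Per the labels, cells were grown in medium with 10% fetal bovine serum, starved of serum for 48 h and then kept for a further 24 h, and no agent is named for the control. From each culture, 0.5 µg of total RNA was amplified, labelled with the green dye Cy3 and read on a 1-colour Agilent array. The design text speaks of independent experiments, so the 3 arrays are taken as separate samples of 1 group of 1 cell line. With 1 group there is no contrast and no test, and every value below describes these cells as measured.

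3T3-L1 cells are committed to the fat lineage but stay fibroblast-like until hormones start differentiation. The transcription factors Cebpb and Cebpd are known to act first, Pparg and Cebpa after them, and the genes of fat storage and of fat cell hormones last. Dlk1, a surface protein of preadipocytes, is known to hold differentiation back, and serum withdrawal is a common way to bring fibroblasts to rest.

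The level of a gene is the log2 processed signal of its brightest probe minus the array's 75th percentile over all gene spots, so a level of 0 is the spot that 75% of spots lie below. Values after ± are standard deviations over the 3 arrays (n = 3). The brightness percentile is the share of 27682 genes and unnamed features with a lower mean level. A bright gene lies at percentile 90 or above; a dim gene was above background on all 3 arrays but in the lowest 25% of such features. Probes differ in how strongly they bind, so the percentile orders probe signals and not amounts of RNA, and a gene not above background may still be transcribed below what its probe can show. Of 19814 genes with a reference symbol, 13085 (66%) were above background on all 3 arrays, 5503 (27.8%) on none and 1226 on 1 or 2 arrays, and 2613 (13.2%) were bright. Genes above background on no array reached at most percentile 40.5, and genes on 1 or 2 arrays went down to 27.7. The order of genes below about percentile 40.5 therefore carries little information. With Agilent's more lenient flag (positive and significant), 2243 genes were above background on no array, and 35 of the 1003 list genes went from no array to all 3; those of them named below are Retn, Plin1, Slc2a4, Tnf, Csf2, Bmp7, Wnt10b, Col9a1, Cd8a, Cd79b, Ckm, Myf6, Des, Myocd, Cldn4, Cldn5, Cldn7, Grhl2, Sox18, Cx3cr1, Cyp7a1, Syp, Erbb3, Esr2, Il2rg and Pklr.

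The 3 arrays each held 43379 gene spots, none saturated, of which 60.4% to 63.6% were well above background. Across 24064 probes above background on all 3 arrays, Pearson's r between arrays was 0.988 to 0.997 (probes are not independent replicates). Replicate 1 stood apart from replicates 2 and 3: 159 genes lay over 1 log2 unit from the mean of the other arrays while those lay within 0.5 of each other, against 32 such genes for replicate 2 and 15 for replicate 3. Replicate 1 was also scanned on another day and read with another software version than the others; the part these played was not tested. Over genes above background on all 3 arrays the median SD was 0.14 log2 units.

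Among the 20 genes with the highest mean level, most encode proteins of the cytosolic ribosome, including Rps18, Rplp0, Rplp2, Rpl23a, Rps23, Rplp1, Rps2, Rps12, Rps28, Rps20 and Rps14. Fau, also among them, encodes a ribosomal protein fused to ubiquitin-like sequence. Fth1, the heavy chain of the iron store ferritin, read 8.54, 8.99 and 8.93 in replicates 1, 2 and 3. Col1a2, a chain of type I collagen, read 8.38, 8.91 and 8.94, and Pcolce, which enhances the trimming of procollagen, read 8.17, 8.45 and 8.52. S100a6, a small calcium-binding protein, read 8.27, 8.40 and 8.60, and COX2, a mitochondrially encoded subunit of cytochrome oxidase, read 8.18, 8.50 and 8.66. All 79 genes on the list of ribosomal proteins were above background on all 3 arrays and 76 were bright, beside 66% and 13.2% of all genes.

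The highest of all named genes was Ptprz1, a receptor phosphatase best known from the nervous system, at 8.39, 9.03 and 9.23. It rested on 1 of 4 probes. That probe lies at chr6:22951569-22951628 of mm9 by the array's own annotation, and the other 3 probes, with mean levels from −8.39 to −8.05, were above background on no array. The level of the gene as a whole is therefore unsettled. Of 491 list genes with more than 1 probe, 21.4% likewise had 1 probe above background on all 3 arrays and another on none, among them Vim, Acta2, Runx2, Cd9, Cd44, Itgb1, Icam1, Fap and Tgfbr2 below.

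Markers of preadipocytes and mesenchymal progenitors were mostly present: 23 of 26 were above background on all 3 arrays and 10 were bright. The shares of all genes were 66% and 13.2%. Dlk1 read 7.79, 8.12 and 8.04 (mean 7.98 ± 0.17), with its probe at chr12:110698667-110698726 of mm9, and both of its probes were above background on all 3 arrays. Cd248, a surface glycoprotein of stromal cells, read 6.16, 6.47 and 6.48. The receptors for platelet-derived growth factor, used to sort adipose progenitors, read 5.99, 5.73 and 5.62 for Pdgfrb and 4.57, 4.64 and 4.58 for Pdgfra. Thy1, a surface marker of fibroblasts, read 5.81, 5.78 and 5.69. Each of these genes kept a spread under 0.4 log2 units over the 3 arrays. Cd9, F3, Prrx1, Twist2 and Cd44 were also bright. The preadipocyte factors Zfp423, Ebf1 and Ebf2 were above background on all 3 arrays at percentiles 61.6, 69.1 and 61.4, and Cd34 and Ly6a, 2 markers used to sort progenitors from tissue, lay at 58.6 and 70.5. Cd24a, Eng and Icam1 were dim. Above background on no array were Nt5e, the ectoenzyme CD73, Dpp4, a marker of early interstitial progenitors, and Tcf21, a transcription factor of visceral mesenchyme.

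**Figure D1:**
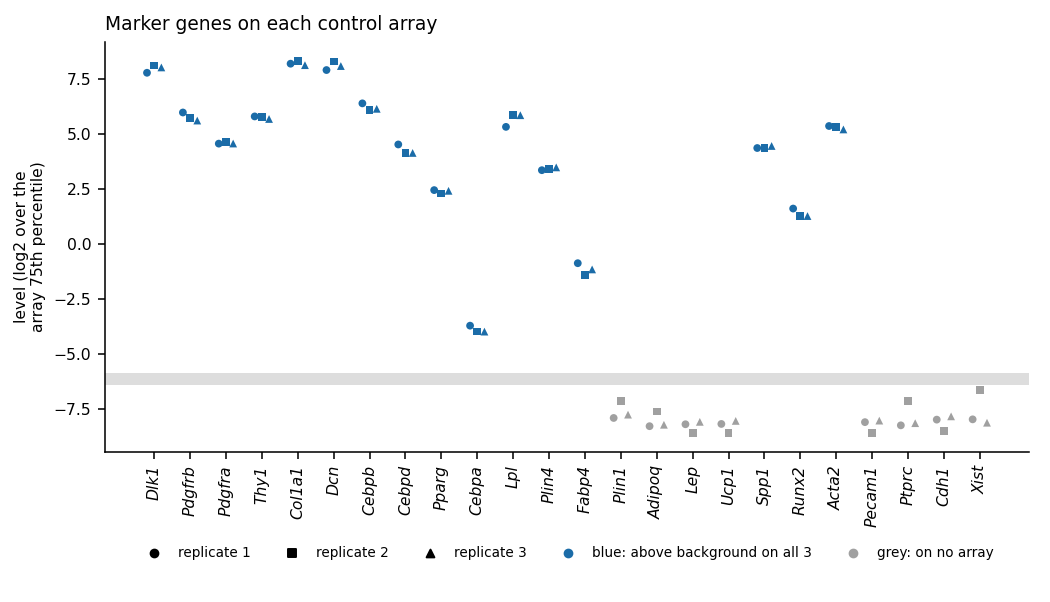
Level of 24 marker genes on each of the 3 control arrays (vertical axis: log2 signal over the array's 75th percentile; circles, squares and triangles are replicates 1, 2 and 3; blue is above background on all 3 arrays, grey on none). The grey band spans the lowest signal well above background on each array, from −6.37 to −5.90. Dlk1, Col1a1 and Dcn lie near 8 on the log2 scale, while Adipoq, Lep and Ucp1 lie below the band on every array.

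All 20 fibroblast markers were above background on all 3 arrays and 16 were bright, beside 66% and 13.2% of all genes. Their median percentile was 99.2, against 60.2 over all genes with a symbol. Col1a1 read 8.21, 8.34 and 8.14 and Col3a1 read 8.11, 8.38 and 8.37. Dcn, a small proteoglycan that binds collagen, read 7.92, 8.31 and 8.10, and Vim, the intermediate filament of mesenchymal cells, read 7.40, 7.55 and 7.49. The lowest members were Fap, a membrane protease of activated fibroblasts, at −1.81, −1.36 and −1.16, and Lum, a corneal and dermal proteoglycan, at 0.41, 0.46 and 0.38. Fn1, Fbln1, Lum and Fap were the 4 members outside the bright range.

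All 22 transcription factors that promote or hold back fat cell formation were above background on all 3 arrays, and 6 were bright. Over all genes these shares were 66% and 13.2%. Cebpb read 6.40, 6.11 and 6.15 (mean 6.22 ± 0.16) and Cebpd read 4.53, 4.16 and 4.15. Nr3c1, the glucocorticoid receptor, Srebf1, which drives fat synthesis genes, Klf4, an early activator of Cebpb, and Rxra, the partner of Pparg, were the other bright members. Pparg, the master regulator of fat cell formation, read 2.46, 2.30 and 2.42 (mean 2.39 ± 0.08, percentile 86.8), from 1 probe at chr6:115440213-115440272 of mm9. Cebpa, which acts beside it, was dim at −3.71, −3.97 and −3.98 (mean −3.89 ± 0.15, percentile 51.1). Gata2 and Gata3, which hold preadipocytes back, lay at percentiles 72.0 and 65.7. Klf15, a late activator, was the lowest member at −5.22, −4.94 and −4.46.

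Genes of the mature fat cell were split. Of 23 measured, 10 were above background on all 3 arrays, 1 (Cidec) on fewer and 12 on none, against 66% and 27.8% of all genes. Lpl, the lipase that frees fatty acids from lipoproteins, read 5.33, 5.86 and 5.86, and Plin4, a lipid droplet coat protein, read 3.36, 3.43 and 3.49. These were the 2 bright members, and both were lowest in replicate 1. Apoe, Pnpla2, Dgat1, Dgat2 and Agpat2 followed at percentiles 87.8, 85.6, 74.6, 74.4 and 72.2. Fabp4, the fatty acid carrier of fat cells, read −0.87, −1.40 and −1.15, Gpd1, which makes glycerol phosphate, −1.35, −1.31 and −1.54, and Lipe, the hormone-sensitive lipase, −2.49, −1.90 and −1.92. For each of these 3 genes another probe was above background on no array. Adipoq, the fat cell hormone adiponectin, read −8.28, −7.61 and −8.21, below the lowest well-above-background signal of each array. Lep, which encodes leptin, read −8.19, −8.59 and −8.08. Retn, Cfd, Plin1, Slc2a4 (the insulin-regulated glucose transporter), Adrb3, Cd36, Aqp7, Rbp4, Adig and Lgals12 were likewise above background on no array, and Pck1 was not measured here. With the more lenient flag, Retn, Plin1 and Slc2a4 counted as above background on all 3 arrays.

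Of 15 brown and beige fat markers, 5 were above background on all 3 arrays (66% of all genes), 3 on 1 or 2, 7 on none (27.8% of all genes), and none was bright (13.2% of all genes). Ppargc1a, the coactivator of mitochondrial genes, was the highest at 0.13, 0.51 and 0.50. Cox7a1 followed at percentile 59.2, and Cox8b, Pank1 and Cidea were dim. Tnfrsf9, Dio2 and Elovl3 were above background on 1 or 2 arrays. Ucp1, the uncoupling protein that defines brown fat, read −8.18, −8.57 and −8.04, and Prdm16, Tmem26, Lhx8, Zic1, Slc27a2 and Tbx1 were also above background on no array.

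The 100 bases before the start of 5 of these genes are shown because they differ in CG dinucleotides, a feature whose median differed, over the whole array, between genes above background on all 3 arrays and on none. They come from RefSeq on GRCm38.p6, and capitals mark each CG:
Cebpb (chr2:167688815-167688914, + strand): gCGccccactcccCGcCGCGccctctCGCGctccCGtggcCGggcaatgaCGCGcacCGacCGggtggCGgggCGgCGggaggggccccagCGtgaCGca
Pparg (chr6:115361044-115361143, + strand, first of 3 listed starts): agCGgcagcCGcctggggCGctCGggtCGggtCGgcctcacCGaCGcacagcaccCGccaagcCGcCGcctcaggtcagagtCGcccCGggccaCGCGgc
Adipoq (chr16:23146436-23146535, + strand): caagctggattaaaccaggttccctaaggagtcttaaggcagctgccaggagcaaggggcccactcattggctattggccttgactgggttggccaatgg
Plin1 (chr7:79732777-79732876, - strand): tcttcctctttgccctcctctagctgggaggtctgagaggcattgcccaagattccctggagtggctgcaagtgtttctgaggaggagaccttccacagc
Col3a1 (chr1:45311438-45311537, + strand): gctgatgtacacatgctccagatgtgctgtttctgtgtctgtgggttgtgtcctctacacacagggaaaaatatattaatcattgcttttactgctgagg
The stretch before Cebpb holds 17 CG. Pparg differs between its starts, with 15 CG before the first listed start and 2 and 1 before the others. The stretches before Adipoq and Plin1 hold 0. That before the bright gene Col3a1 also holds 0 and that before Dlk1 holds 4, so the feature does not follow brightness gene by gene.

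Over 300-base promoters, from 250 bases before to 50 after the start, 15662 genes were matched by symbol, each by its first listed start. The median ratio of observed to expected CG, computed from the counts of C, G and CG in the window, was 0.753 in 10431 genes above background on all 3 arrays and 0.27 in 4299 genes on none. It was 0.808 in bright genes and 0.454 in dim genes. The median GC content was 60.3% in genes on all 3 arrays and 50% in genes on none. The letters TATAAA, searched on the gene's strand from 40 to 16 bases before the start, were found in 1.63% of the former and 4.75% of the latter, against 2.64% of all 15662 promoters. By brightness the share was 1.62% in bright, 1.05% in middle and 3.58% in dim genes, and 3.83% (7 of 183) in genes at percentile 99 or above, so it did not follow the level in 1 direction. The array's 60-base probes differed the same way in base composition, with mean GC of 42.6% for probes above background on all 3 arrays and 38.8% for probes on none; how far this bears on the calls was not tested.

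Markers of the other mesenchymal lineages gave mixed readings. Of 11 osteoblast genes, 9 (81.8%) were above background on all 3 arrays, beside 66% of all genes. Of these 9, 7 were dim, among them Sost, Phex, Dmp1, Bglap, Dlx5 and Alpl. Spp1, a secreted phosphoprotein also made by fibroblasts, read 4.37, 4.37 and 4.46, and Runx2, the bone master regulator, read 1.62, 1.27 and 1.28. Sp7, the factor that acts after Runx2, and Ibsp were above background on no array. Of 12 chondrocyte genes, 6 (50%) were above background on all 3 arrays, against 66% of all genes. Col2a1, the main collagen of cartilage, read 5.36, 4.15 and 4.37, with replicate 1 above the others, and Sox9, its activator, read 3.07, 2.62 and 2.59. The second Col2a1 probe had a mean level of −2.10 and the third, at −8.17, was above background on no array. Col11a2 lay at percentile 70.1, Comp, Acan and Sox5 were dim, Sox6 was above background on 1 array, and Col9a1, Matn1, Hapln1, Matn3 and Col10a1 were on none.

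Of 13 smooth muscle and pericyte genes, 11 (84.6%) were above background on all 3 arrays, beside 66% of all genes. Acta2, the smooth muscle actin that fibroblasts in culture also make, read 5.37, 5.33 and 5.21, and Tpm1, a tropomyosin, read 3.72, 4.05 and 3.93. Tpm2, Actg2, Tagln, Smtn and Lmod1 lay between percentiles 63.2 and 87.8. Mcam, Cspg4, Cnn1 and Myh11, the smooth muscle myosin, were dim, and Myocd, the smooth muscle coactivator, and Rgs5, a pericyte marker, were above background on no array. Of 14 skeletal muscle genes, 6 (42.9%) were above background on all 3 arrays, against 66% of all genes. None was bright: Acta1, Mymk and Pax3 were in the middle range and Tnnt3, Myh1 and Myod1 were dim. Pax7 and Chrna1 were above background on fewer arrays, and Des, Myf6, Ckm, Myog, Myh3 and Myf5 on none.

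**Figure D2:**
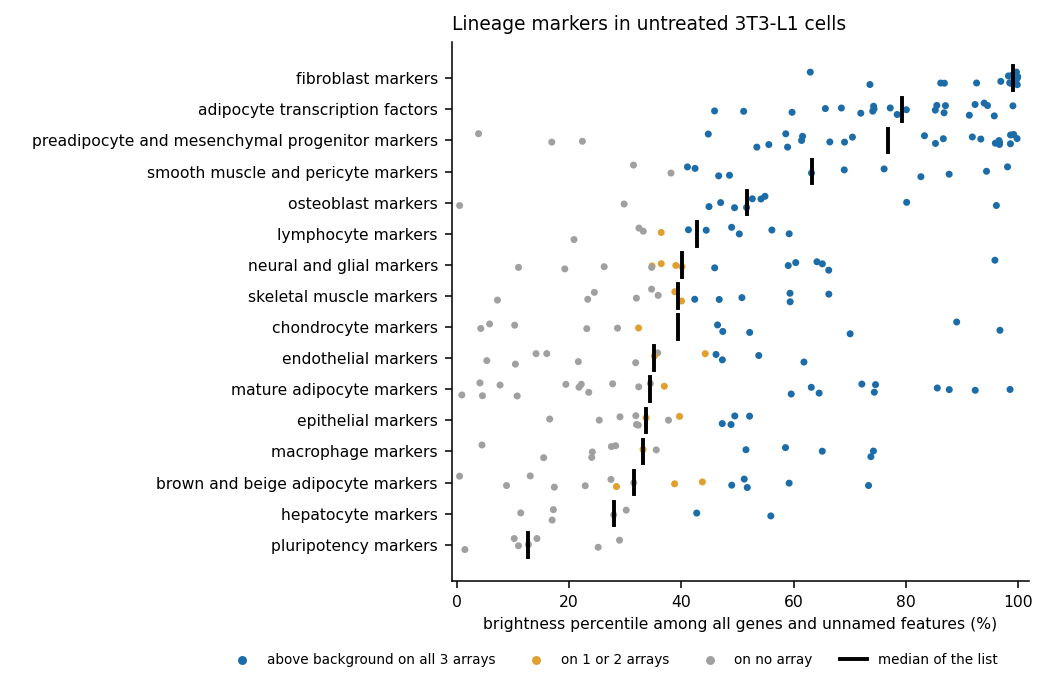
Brightness percentile of the measured members of 16 lineage lists (horizontal axis: % of all genes and unnamed features with a lower mean level). Each point is a gene, coloured by whether it was above background on all 3, 1 or 2, or none of the control arrays, and black bars are list medians, from 99.2 for fibroblast markers to 12.7 for pluripotency markers.

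Of the markers of other cell types, 5 of 13 macrophage, 4 of 13 endothelial and 4 of 13 epithelial genes were above background on all 3 arrays, against 66% of all genes, and 7 of each list were on none, against 27.8%. Of 10 lymphocyte genes 6 were on all 3 arrays, near the share of all genes, and 5 of these were dim. Among 13 macrophage genes 5 were above background on all 3 arrays: Lyz2, a lysozyme, at 0.59, 0.44 and 0.49, Cd14 at 0.26, 0.42 and 0.64, and Aif1, Csf1r and, dimly, Cd68. Ptprc, the leukocyte common antigen, Adgre1, Itgam, Cx3cr1, Fcgr1, Tyrobp and Mrc1 were on none and Spi1 on 1 array. The summed signal of the macrophage list, members at background included, was 3.47 to 3.75 times the 75th percentile signal per array; sums over different probes are not set against each other. Among 13 endothelial genes Flt1 was in the middle range, Vwf, Tek and Esam were dim, Sox17 and Emcn were above background on 1 or 2 arrays, and Cldn5, Sox18, Erg, Kdr, Cdh5, Pecam1 and Tie1 were on none. Among 13 epithelial genes Krt8, Krt14, Krt5 and Cldn3 were dim, Krt19 and Krt18 were above background on 1 or 2 arrays, and Cldn7, Grhl2, Ocln, Cldn4, Esrp1, Epcam and Cdh1 were on none. The summed signal was 0.556 to 0.586 for the endothelial list and 0.278 to 0.332 for the epithelial list. Among 10 lymphocyte genes Lck was in the middle range, Cd3e, Zap70, Cd4 and Cd3g were among the dim ones, Cd79a was above background on 1 array, and Cd8a, Cd79b and Ms4a1 were on none, with a summed signal of 0.536 to 0.588. The part of any such cells, or of probes that bind other RNA, in these readings was not tested.

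Among 15 neural and glial genes, Ncam1, a cell adhesion molecule also found on mesenchymal cells, was bright at 4.45, 4.25 and 4.24. S100b, Tubb3, Nes and Map2 were among those in the middle range and Sox10 was dim; Rbfox3, Mbp and Gfap were among those above background on 1 or 2 arrays, and Syp, Olig2, Snap25 and Sox2 on none. For Map2, 4 of 5 probes were above background on no array. Of 7 hepatocyte genes, Tat and Hnf4a were dim and Alb, Ttr, Apoa1, Afp and Cyp7a1 were above background on no array. None of 7 pluripotency genes (Pou5f1, Nanog, Sox2, Zfp42, Esrrb, Dppa3 and Lin28a) was above background on any array. Over all genes, 27.8% were above background on no array.

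Hox genes record position along the body axis. Of 38 measured, 21 (55.3%) were above background on all 3 arrays, 5 on 1 or 2 and 12 on none, near the 66% and 27.8% of all genes, and none was bright. In paralogue groups 1 to 5, 12 of 15 genes were above background on all 3 arrays, in groups 6 to 9, 8 of 12, and in groups 10 to 13, the most posterior, 1 of 11. That 1 gene was Hoxd10, which was dim. Hoxa7 was the highest at 3.27, 2.07 and 2.61, with replicate 1 highest and replicate 2 lowest. Hoxd4 read 1.86, 1.24 and 1.02 and Hoxb2 1.51, 1.11 and 1.12. Hoxb1 and Hoxd1 were the members of groups 1 to 5 above background on no array. By cluster, 8 of 11 Hoxa genes, 4 of 10 Hoxb, 4 of 8 Hoxc and 5 of 9 Hoxd genes were above background on all 3 arrays.

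**Figure D3:**
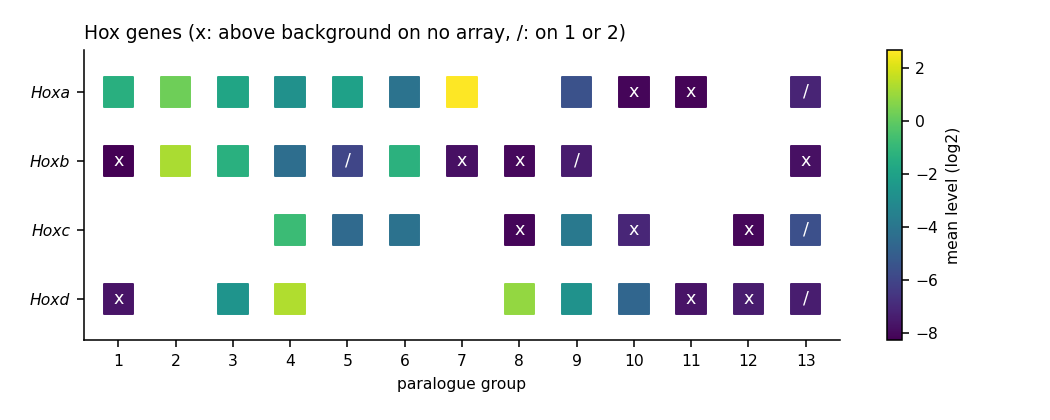
Mean level of each measured Hox gene over the 3 control arrays, by cluster (rows) and paralogue group (columns, 1 anterior to 13 posterior), in log2 units over the 75th percentile. A cross marks genes above background on no array and a slash those on 1 or 2; crosses and slashes fill most of groups 10 to 13.

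The receptors these cells could use were read next. Among 54 receptor tyrosine kinases, 31 (57.4%) were above background on all 3 arrays, near the 66% of all genes. After the receptors for platelet-derived growth factor, the highest were the collagen receptors Ddr1 and Ddr2, at percentiles 95.1 and 92.7, the Wnt receptor Ryk at 94.8 and Ephb3 at 90.2. Igf1r, the receptor for insulin-like growth factors, read 1.76, 1.51 and 1.50, and Insr, the insulin receptor, read −0.65, −0.16 and −0.41. Egfr read 0.77, 0.85 and 0.82 and Met, the receptor of hepatocyte growth factor, 1.24, 1.61 and 1.57. Of the fibroblast growth factor receptors, Fgfr2 lay at percentile 73.0 and Fgfr1, Fgfr3 and Fgfr4 at 65.2, 64.1 and 58.9. Kit, Kdr, Flt4, Ret, Alk, Erbb3, Erbb4 and Ntrk2 were among 20 above background on no array.

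Among 14 receptors of the TGF-beta and BMP family, 12 (85.7%) were above background on all 3 arrays, beside 66% of all genes. Tgfbr2, which binds TGF-beta, was bright at 2.93, 3.20 and 3.18, and its signalling partner Tgfbr1 read 1.78, 2.17 and 2.04. Bmpr2, Bmpr1a, Acvr1b, Acvr1, Acvr2a and Tgfbr3 lay in the middle range, Amhr2, Eng, Acvr2b and Acvrl1 were dim, and Acvr1c and Bmpr1b were above background on no array. Of 19 Wnt, Notch and Hedgehog receptors 15 (78.9%) were above background on all 3 arrays. Smo, the Hedgehog signal transducer, read 6.01, 6.28 and 6.20 on its brightest probe, while its other probes had mean levels of −3.70 and −7.79, the latter above background on no array. The Wnt receptors Fzd1 and Fzd2 read 5.87, 5.70 and 5.58 and 4.05, 3.98 and 4.11. Notch2 was the highest Notch receptor, at percentile 77.2. Ptch1, the Hedgehog receptor, was above background on 1 array, at −4.67, −7.15 and −7.82.

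Of 26 cytokine receptors, 22 (84.6%) were above background on all 3 arrays and 10 were bright, beside 66% and 13.2% of all genes. Il11ra1, which binds interleukin 11, read 6.93, 6.81 and 6.69, Ghr, the growth hormone receptor, 5.14, 5.21 and 5.33, and Tnfrsf1a, the receptor for tumour necrosis factor, 5.28, 5.07 and 4.95. Osmr and Il6st, the receptor chains for oncostatin M and for the interleukin 6 family, lay at percentiles 95.2 and 91.8. Il6ra, the binding chain for interleukin 6 itself, was dim at −4.24, −4.45 and −4.17. Lepr, the leptin receptor, Il7r, Il2rg and Csf3r were above background on no array. Of 9 Toll-like receptors measured, Tlr2 read 2.40, 2.52 and 2.50, Tlr9, Tlr4, Tlr6 and Tlr3 followed, Tlr5 and Tlr1 were above background on 1 or 2 arrays and Tlr7 and Tlr8 on none. Tlr11, Tlr12 and Tlr13 were not measured here.

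Of 49 nuclear receptors, 27 (55.1%) were above background on all 3 arrays and 5 were bright, beside 66% and 13.2% of all genes. The bright members were Nr2f6, Thra, Nr3c1, Nr2f2 and Rxra. Thra, a thyroid hormone receptor, read 4.04, 4.22 and 4.23, while its relative Thrb was above background on no array at −6.56, −6.58 and −7.78. Pparg was the only 1 of the 3 PPAR genes above background on all 3 arrays; Ppard and Ppara reached it on 1 or 2. The sex steroid receptors Esr1, Esr2 and Pgr were on none. Among 48 G protein coupled receptors chosen for fat tissue, 31 (64.6%) were above background on all 3 arrays, near the share of all genes. F2r, the thrombin receptor, read 3.71, 4.26 and 4.08, and Ednra, an endothelin receptor, 2.95, 3.09 and 3.11. The receptors for lysophosphatidic acid Lpar6, Lpar1 and Lpar4 lay at percentiles 86.0, 83.4 and 81.6. Of the beta-adrenergic receptors, through which fat cells are told to release fat, Adrb1 was dim at −3.81, −3.97 and −4.07, and Adrb3 was above background on no array. Ffar4, Hcar1, Hcar2, Gipr and Glp1r were also on none.

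**Figure D4:**
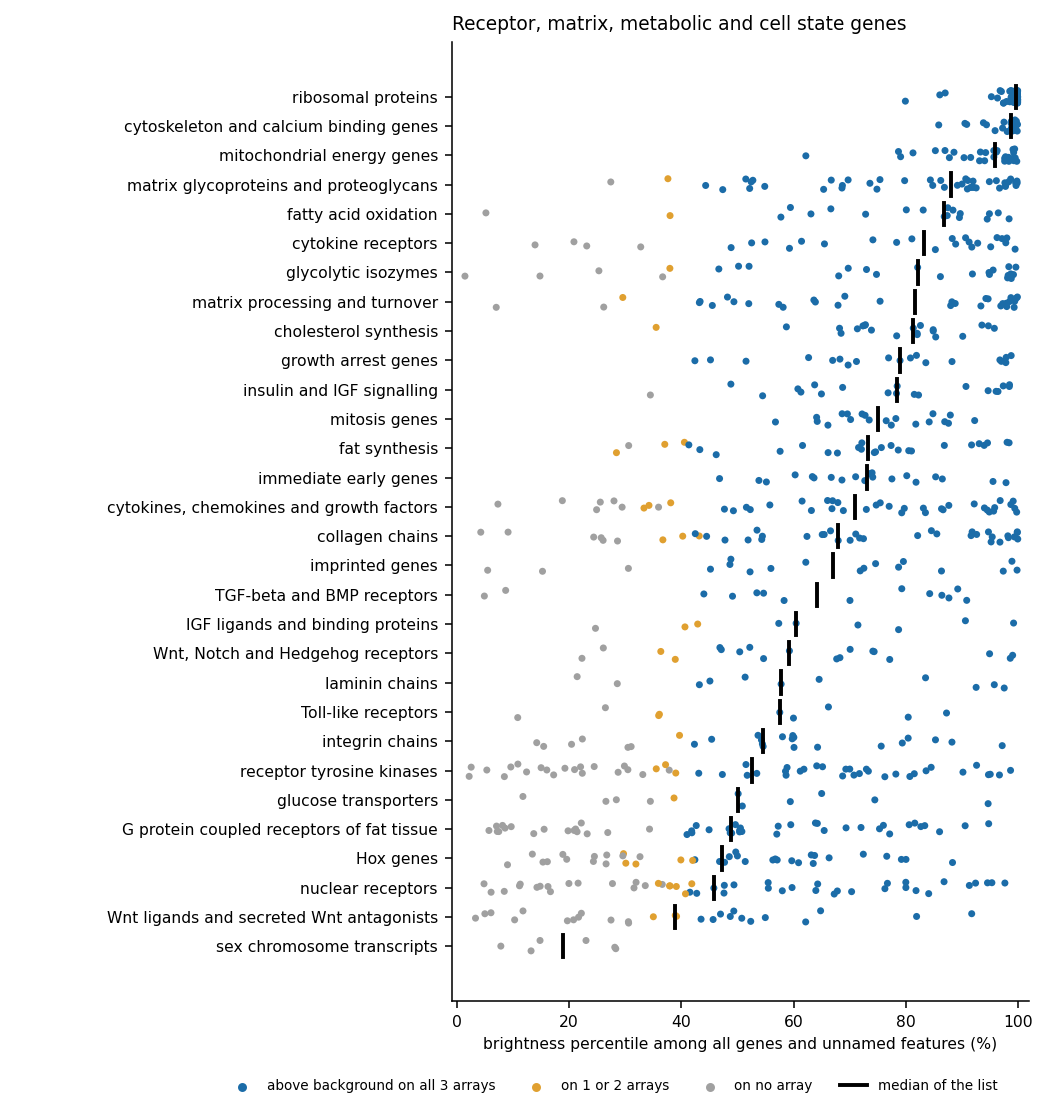
Brightness percentile of the measured members of 30 lists of receptors, matrix, metabolic, secreted and cell state genes (horizontal axis in %, points and bars as for the lineage lists). The lists of ribosomal, of cytoskeleton and calcium binding, and of mitochondrial genes lie furthest to the right, with medians of 99.7, 98.9 and 96.0. Wnt ligands and sex chromosome transcripts lie furthest to the left, at 38.9 and 18.9.

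Matrix genes reached the top of the range. Of 41 collagen chains, 32 (78.0%) were above background on all 3 arrays and 13 were bright, beside 66% and 13.2% of all genes. Beside the chains of types I and III, the bright members were all 3 measured type V chains (Col5a1, Col5a2 and Col5a3), Col4a1 and Col4a2 of basement membrane, Col6a1, Col11a1, Col16a1, Col18a1 and Col2a1. Col5a1, which starts collagen fibres, read 6.53, 6.64 and 6.53. Col6a3 was dim at −4.07, −3.69 and −3.45, apart from Col6a1 at 5.01, 5.66 and 5.63, and another of its probes was above background on no array. Col4a3 and Col10a1 were among 6 chains on none. Of 44 matrix glycoproteins and proteoglycans, 42 were above background on all 3 arrays and 21 were bright, led by Dcn, Fbln2, Postn and Sparc. Postn, a matrix protein of growing connective tissue, read 7.05, 7.46 and 7.35. Eln, which encodes elastin, was dim at −3.78, −3.90 and −3.80, and Thbs4 was above background on no array.

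Of 32 genes that process or break down matrix, 29 (90.6%) were above background on all 3 arrays, beside 66% of all genes. Of the 32, 13 were bright, beside 13.2% of all genes. Serpinh1, the collagen chaperone, read 7.57, 7.45 and 7.40, and the cross-linking oxidases Loxl1 and Lox read 5.71, 5.88 and 5.88 and 4.37, 4.87 and 4.83. The membrane metalloproteinase Mmp14 read 6.57, 6.43 and 6.40 and its substrate Mmp2 5.54, 5.58 and 5.61, beside the inhibitor Timp2 at 6.63, 6.79 and 6.72. Mmp12 and Mmp15 were above background on no array. Of 11 laminin chains, Lamc1, Lamb1 and Lama4 were bright, and read 4.89, 5.04 and 4.96, 4.29, 4.33 and 4.21 and 3.30, 3.58 and 3.48. Lamb2, Lama2 and Lama5 were in the middle range, Lamc3 and Lama3 were among the dim ones and Lamb3 and Lama1 were above background on no array. Of 25 integrin chains, 18 (72.0%) were above background on all 3 arrays, near the 66% of all genes. Itgb5 was the 1 bright member at 4.87, 4.80 and 4.79. Itgb3, Itgb1, Itgav, Itga6 and Itga5 lay between percentiles 75.6 and 88.3. Of 23 cytoskeleton and calcium binding genes, 22 were bright, beside 13.2% of all genes. They were led by S100a6, Lgals1 at 8.14, 8.21 and 8.21 and Vim. Actb, the beta actin often used as a reference, was counted among the 22 and varied more, at 3.77, 2.56 and 2.80. The array annotates its probe on chromosome X and not at the Actb gene.

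Energy genes followed. All 32 genes of the citric acid cycle and respiratory chain were above background on all 3 arrays and 24 were bright, with Cox6a1, a cytochrome oxidase subunit, at 7.81, 7.74 and 7.93 and Ogdh lowest at −1.87, −1.44 and −1.47. Of 25 glycolytic isozymes, 20 (80%) were above background on all 3 arrays and 11 were bright, beside 66% and 13.2% of all genes. Aldoa, an aldolase, read 7.08, 7.28 and 7.29, Ldha, which makes lactate, 6.35, 6.26 and 6.34, and Gpi1 5.93, 5.79 and 5.75. Those above background on no array included Pklr, known from liver, and Pgk2 and Ldhc, known from testis. Hk1 and Hk2, which trap glucose in most cells, lay at percentiles 94.9 and 86.2. Of 11 glucose transporters, Slc2a1, the common one of growing cells, was bright at 4.52, 3.76 and 3.69, with replicate 1 above the others. Slc2a8, Slc2a10 and Slc2a13 were in the middle range, Slc2a6 and Slc2a9 were dim, Slc2a2 was above background on 1 array, and Slc2a3, Slc2a4, Slc2a5 and Slc2a12 were on none.

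In fat synthesis, 24 of 28 genes (85.7%) were above background on all 3 arrays, beside 66% of all genes. Fasn, fatty acid synthase, read 5.51, 5.58 and 5.53, and Scd2, the desaturase of non-hepatic tissue, 5.07, 5.37 and 5.30. Scd1, the form of mature fat cells, read 1.13, 0.86 and 0.96, and Gpam, which starts triglyceride synthesis, was dim at −4.94, −4.82 and −4.68. Of 19 fatty acid oxidation genes 17 were above background on all 3 arrays, with Etfb, Acaa2 and Acadvl among the bright members, and Ehhadh was on none. Cpt1a, the gate of fatty acids into mitochondria, read 2.54, 2.75 and 2.70. Of 21 cholesterol synthesis genes 20 were above background on all 3 arrays, and Msmo1, Srebf2, Hmgcs1 and Sqle were bright.

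In insulin and IGF signalling, 19 of 20 genes (95%) were above background on all 3 arrays, beside 66% of all genes. Akt1, a kinase that carries the signal, read 5.59, 5.62 and 5.53 and Irs1, the receptor substrate, 3.90, 4.04 and 4.03. Slc2a4 was the member on none, and Irs2 was not measured here. Among 9 IGF ligands and binding proteins, Igfbp7 read 6.27, 6.46 and 6.31 and Igf1 3.34, 2.82 and 3.02, both bright. Igf2, Igfbp6, Igfbp4 and Igfbp3 were in the middle range, Igfbp5 and Igfbp2 were above background on 1 or 2 arrays and Igfbp1 was on none.

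Among 44 secreted cytokines, chemokines and growth factors, 34 (77.3%) were above background on all 3 arrays, beside 66% of all genes. The bright members numbered 11, beside 13.2% of all genes. Serpinf1, an antiangiogenic serpin made by preadipocytes, read 7.62, 7.83 and 7.75, and Ccl2, the chemokine that draws monocytes, 6.69, 6.74 and 6.73. Angptl4, an inhibitor of lipoprotein lipase, read 6.17, 6.31 and 6.33. Vegfb, Vegfc and Vegfd were bright and Vegfa, the main vessel growth factor, read 1.74, 1.99 and 1.90. Il6 was dim at −4.40, −4.78 and −4.39, and Tnf, Il1a, Il1b, Il10, Csf2, Bmp2 and Bmp7 were above background on no array, though Tnf, Csf2 and Bmp7 were on all 3 with the more lenient flag. Of 27 Wnt ligands and secreted antagonists, 12 (44.4%) were above background on all 3 arrays, against 66% of all genes. Another 12 were on none, against 27.8% of all genes. Sfrp2, a secreted frizzled-related protein, was the bright member at 3.45, 3.18 and 3.25, and Wnt6, which can hold preadipocytes back, read 1.56, 1.65 and 1.73. Wnt10b, an inhibitor of fat cell formation, was above background on no array at −7.09, −7.54 and −7.33, and on all 3 with the more lenient flag.

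All 20 mitosis genes were above background on all 3 arrays, with a median percentile of 75.02 against 60.2 over all genes with a symbol. Cdc20, an activator of the anaphase-promoting complex, read 3.44, 3.36 and 3.41, Mki67, a proliferation marker, 2.31, 2.47 and 2.50, and Ccnb1, cyclin B1, −0.60, −0.35 and −0.33. All 19 growth arrest genes were above background on all 3 arrays and 5 were bright, beside 66% and 13.2% of all genes. Gas1, named for its rise in growth-arrested fibroblasts, read 5.92, 5.87 and 5.82, and Cdkn2b, an inhibitor of the G1 kinases, 5.12, 5.32 and 5.02. Without a serum-fed group, these levels cannot be set against those of growing cells. All 20 measured immediate early genes were above background on all 3 arrays; Jund at 5.05, 5.22 and 5.12 and Junb at 4.37, 4.17 and 4.07 were bright, and Fos at −3.17, −3.50 and −3.33, Fosb and Egr3 were dim. Egr4 was not measured here.

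Of 18 imprinted genes, which are read from 1 parental copy, 15 (83.3%) were above background on all 3 arrays, beside 66% of all genes. Dlk1, Sgce and Igf2r were bright, Igf2 read 1.52, 0.99 and 1.04 and H19, its neighbour, was dim at −3.66, −3.58 and −3.72. Meg3, the noncoding RNA beside Dlk1 that is read from the other parental copy, read −8.26, −8.04 and −8.10 and was above background on no array, as were Nnat and Zim1. None of 6 sex chromosome transcripts was above background on any array, where 27.8% of all genes were on none. Xist, the RNA of the inactive X chromosome, read −7.97, −6.62 and −8.12 on the brightest of 4 probes, and Tsix and the Y-linked genes Ddx3y, Kdm5d, Uty and Eif2s3y were likewise not well above background.

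The untreated arrays were not identical to one another. Among genes above background on all 3 arrays, 26 (0.199%) spanned over 2 log2 units and 396 (3.03%) over 1. The 26 became 9 without replicate 1, 12 without replicate 2 and 25 without replicate 3. A gene's range over 2 arrays cannot exceed its range over 3, so a fall is partly built in. The count was 6 with normexp background correction of the median spot signal. Hydin, a gene of motile cilia, read 1.41, −2.90 and −0.26, the largest range. Hmox1, the stress-induced heme oxygenase, read 5.07, 1.60 and 3.39, with replicate 1 highest and replicate 2 lowest. Gprc5c and Prima1 were highest in replicate 2, Rad54l2 and Mybpc2 in replicate 3, and Tnpo2, Gabarapl2, Cfap46 and Plau in replicate 1. Plau, the urokinase protease, read −2.74, −5.20 and −4.68. The median range was 0.21 log2 units in bright genes and 0.38 in dim genes.

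**Figure D5:**
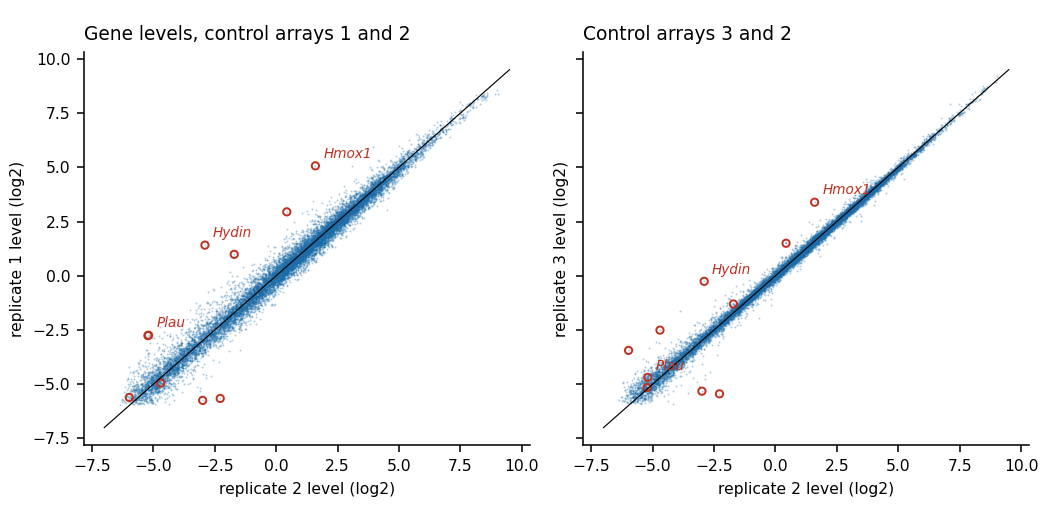
Level of each gene above background on all 3 arrays, replicate 1 against replicate 2 (left) and replicate 3 against replicate 2 (right), in log2 units over the 75th percentile. The line marks equal levels and open red circles the 10 genes with the largest range; points scatter more widely on the left, and Hmox1 lies above the line in both panels.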

How the data were processed

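Spot intensity was read and background-subtracted within each array by Agilent Feature Extraction (10.5.1.1 for replicate 1, 10.7.3.1 for the other replicates), per the file headers, with no scaling between arrays; per the submitters' processing notes the version was 9.1. A deposited score per probe served only as an alternative.

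Control spots and spots with outlier flags were dropped, log2 intensity was set against each array's 75th percentile, and spots of a probe were averaged. Of 41174 probes, 25263 were named by accession, 6233 by symbol and 1603 by synonym through RefSeq tables, and 8075 stayed unnamed; 41091 passed the outlier filter. A gene took its brightest probe; it counted as above background on all 3 arrays where 1 probe had Agilent's well-above-background flag on each. Of 8695 genes with several probes, 1780 had 1 probe above background on all 3 arrays and another on none. The collapse was tested on simulated data. Genes were named by role from 46 lists, with the 20 brightest and the 10 with the largest range. The members and lists were chosen with earlier results of these data known. Tools were Python 3.11.15, pandas 2.3.3 and, for normexp, limma 3.58.1. Some list members are not reported here by name. The number of arrays limits the precision.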

Additional observations from a re-analysis of the deposited data

How the results depend on the processing

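No paired analysis was possible because the description covers 1 group and makes no comparison. The count of genes above background on all 3 arrays ran from 13082 to 15079 over the alternatives tried (main 13085), and that of genes on none from 2243 to 5941 (main 5503). The lowest of the latter, 2243, came with the more lenient flag, positive and significant, in place of well above background; with it 35 of 1003 list genes moved from none to all 3 arrays, among them Tnf, Retn, Plin1, Slc2a4 and Wnt10b, while Adipoq, Lep and Ucp1 did not. Leaving out replicate 1, 2 or 3 gave 13111 to 13333 genes on all remaining arrays and 5651 to 5941 on none. The 26 genes with a range over 2 log2 units became 9 without replicate 1, 12 without replicate 2 and 25 without replicate 3. With 1 array left out a gene's range cannot rise, so a fall is partly built in. The count was 6 with normexp (offset 50) on the median spot signal, against 27 with quantile and 24 with median scaling. The cause of these shifts was not tested. The largest shift in the median percentile of a list was 1.00 with quantile scaling and 3.93 with the deposited scores. The mean of all probes in place of the brightest moved list medians by up to 10.2 and Ptprz1 by 46.1. With it, 40 of 46 list medians and 754 of 1015 gene percentiles moved by more than their SD over the 3 arrays. Most percentiles given here thus depend on the choice of the brightest probe. With normexp on the median spot signal, 15 of 46 list medians moved by more than that SD, and the largest shift was 6.02. The planned normexp on the mean spot signal was not run, because that signal was available for replicate 1 but not for replicates 2 and 3. The median spot signal was chosen after seeing the data. Ranking only among genes above background on all 3 arrays changed the scale by construction and gave no median for lists with no such member. Using all listed promoters gave a median CG ratio of 0.737 in genes on all 3 arrays and 0.277 in genes on none.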

Other observations

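Grouping the 19814 genes by the letters before the number in their symbol gave 127 families with 15 or more measured members. In 8 of them every member was above background on all 3 arrays, among them the mitochondrial ribosomal proteins (Mrpl, 49 genes, and Mrps, 29 genes), the RNA polymerase subunits (Polr, 28 genes) and the vesicle sorting genes (Vps, 35 genes). Families of specialised cells were at the other end, beside 66% of all genes on all 3 arrays and 27.8% on none. Of 904 olfactory receptors (Olfr), 133 were above background on all 3 arrays and 675 on none, and of 135 vomeronasal receptors (Vmn), 12 and 101. Bitter and sweet taste receptors (Tas), beta-defensins (Defb) and the prolactin family (Prl) had 2 of 16, 4 of 28 and 4 of 22 members above background on all 3 arrays.

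By chromosome, the share of genes above background on all 3 arrays ran from 58.2% on the X to 71.8% on chromosome 11 among chromosomes other than the Y. On the Y, 2 of 17 genes were above background on all 3 arrays, Gm20747 at −5.72, −5.70 and −5.25 and Zfy1 at −4.84, −3.82 and −3.97; both were named after their values were seen.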
